A study of Mus musculus with 6 samples.

Results

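The genes that make, break down and read the cyclic nucleotides cAMP and cGMP were examined in the mouse nucleus accumbens, the ventral striatal region that dopamine neurons of the midbrain innervate, after repeated cocaine. Members were chosen by name from the authors' deposited gene table: all Adcy, Pde and Gucy1 symbols (without the neuropeptide Adcyap1 and its receptor), 6 subunits of cAMP-dependent protein kinase (PKA), both cGMP-dependent protein kinases, and Creb1 and Crem. This gave 50 genes of 21203 symbols. The C57BL/6 mice had been injected intraperitoneally once a day for 7 days, the treated group with 20 mg/kg cocaine and the control group with saline. There were 3 RNA-seq libraries per group, and the labels place the tissue 4 h into withdrawal. No transgene and no further agent is named for either group. The labels do not say whether a library is 1 animal or a pool, nor give sex or age. The table holds 1 value per group in FPKM (fragments scaled to transcript length and to library total) and no value per library, so no spread between replicates stands beside any level, and the read depth is unknown.

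In striatal spiny neurons, dopamine acting on D1 receptors and adenosine acting on the receptor encoded by Adora2a stimulate adenylyl cyclase through the G protein subunit Golf, while D2 receptors inhibit it. The cAMP made there releases the catalytic subunits of PKA from its regulatory subunits, and PKA phosphorylates targets such as DARPP-32 and the transcription factor CREB. Nitric oxide raises cGMP through soluble guanylyl cyclase. Phosphodiesterases (PDEs) hydrolyse both messengers and differ by family in substrate and regulation. CREB activity in the accumbens is a long-studied part of the response to cocaine.

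Upstream sequences are shown for Adcy1, the cyclase that rose after cocaine, and for Adcy5, the cyclase with the highest level. Each run is the 250 bases before the RefSeq start site on build GRCm38.p6, plus strand, with every GC box (GGGCGG, either strand) in capitals.

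Adcy1, chr11:7063183-7063432: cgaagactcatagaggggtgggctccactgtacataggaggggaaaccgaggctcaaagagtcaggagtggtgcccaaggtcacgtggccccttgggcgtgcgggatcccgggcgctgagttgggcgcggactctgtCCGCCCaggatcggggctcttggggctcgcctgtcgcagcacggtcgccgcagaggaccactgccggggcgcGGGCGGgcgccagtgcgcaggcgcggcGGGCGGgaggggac

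Adcy5, chr16:35154614-35154863: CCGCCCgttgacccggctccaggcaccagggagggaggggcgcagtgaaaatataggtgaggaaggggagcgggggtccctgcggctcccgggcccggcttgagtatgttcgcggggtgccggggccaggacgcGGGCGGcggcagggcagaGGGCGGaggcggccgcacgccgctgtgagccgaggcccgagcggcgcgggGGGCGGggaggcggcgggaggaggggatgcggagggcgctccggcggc

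The Adcy1 run had 3 GC boxes and a GC content of 71.2%, and the Adcy5 run had 4 and 78.0%. Since Creb1 and Crem are members, the cAMP response element TGACGTCA, which reads the same on both strands, was also searched in the 300 bases from 250 before to 50 after each RefSeq start. Entries were found for 39 of the 50 members, with 79 promoters in all. The element was present in 2 of them (2.53%), against 1.79% of 32851 mouse promoters. Both belong to Prkar1a, the PKA regulatory subunit gene with the highest level here, closely followed by Prkar1b, and are 1 site seen from neighbouring start sites. In the run below it lies 49 to 42 bases before the downstream start, within the transcript of the upstream one, and is in capitals.

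Prkar1a, chr11:109650890-109650917: cgaggcgcatTGACGTCAgcagccgaac

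The 5-base core TGACG, on either strand, was in 18 of the 79 member promoters (22.8%) and in 20.8% of all promoters. The GC box was in 36 (45.6%) and in 35.7% of all promoters. These are matches of letters in the sequence, not measured binding.

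The tissue carried the markers of striatal spiny neurons. Drd1a stood at 65.0 FPKM in the saline group, Drd2 at 91.2, Adora2a at 120 and Ppp1r1b, which encodes DARPP-32, at 829. Log2 fold changes lay below 0 for 7 of 8 D1, 6 of 6 D2 and 6 of 9 general spiny markers. Over all genes of at least 1 FPKM, 40.7% lay above 0. Several signs turned after the trend with GC content and length described further down was subtracted. Of the D2 markers, Adora2a (0.04), Drd2 (0.02), Gpr6 (0.008) and Penk (0.006) then lay above 0, and Ptprm and Sp9 stayed below. Slc35d3, a D1 marker, and the general markers Ppp1r1b and Rasd2 also turned above 0, and the general marker Meis2 turned below. Of the spiny markers only Scn4b, a general one, was called, and it was lower (183 and 177 FPKM, q = 0.000420 in the authors' deposited table). Its log2 fold change was -0.05, and -0.02 after the trend was subtracted. Of 9 interneuron markers, 4 had log2 fold changes above 0 and 5 below. Only Cck was called among them, and it was lower (48.0 and 39.6 FPKM, q = 0.0127 in the authors' deposited table). Some transcripts of other cell types also had different group values. Ttr, a choroid plexus transcript, stood at 0.668 FPKM after saline and 10.8 after cocaine. The other 3 choroid plexus and ependymal markers of at least 1 FPKM had log2 fold changes below 0. A further 4 were tested under 1 FPKM, and none was called. Of these, Kcnj13 (0.0658 and 0.581 FPKM), Folr1 (0.234 and 0.618) and Otx2 (0.383 and 0.443) were higher after cocaine, and Ccdc153 (0.755 and 0.511) was lower. All 5 tested blood markers had log2 fold changes below 0. Hba-a2, an alpha globin whose reads may be shared with a near-identical copy, was the 1 call (80.9 and 67.4 FPKM, q = 0.0335 in the authors' deposited table). All 10 endothelial and mural markers of at least 1 FPKM were lower after cocaine, with a summed level of 46.5 FPKM over all 11 markers after saline and 38.4 after cocaine.

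Of the 50 members, 43 were marked as tested in the authors' deposited table, 5 as not tested and 2, Adcy9 and Creb1, as failed. At a deposited q below 0.05, 2 of the 43 passed: Adcy1 rose and Adcy6 fell. Over all 14778 tested symbols 1.25% passed, 0.528% higher and 0.717% lower. At an unadjusted deposited p below 0.05 there were 4 members (9.30%), 1 higher and 3 lower, against 5.75% of all tested symbols (2.0% higher and 3.75% lower). The members beyond the called pair were Pde1b and Adcy5, the phosphodiesterase and the cyclase with the highest levels, and the nearest to the threshold was Pde1b at q = 0.598. The other 41 tested members did not pass.

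Differences were small across the members. Of 38 tested members with at least 1 FPKM in the higher group, 28 had an absolute log2 fold change under 0.1 (73.7%, against 66.5% of all such genes). Their median log2 fold change, cocaine over saline, was 0.02, and 24 of 38 lay above 0 (63.2%). Over all 12833 such genes the median was -0.02 and 40.7% lay above 0. These counts describe the group values and were not tested.

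**Figure D1:**
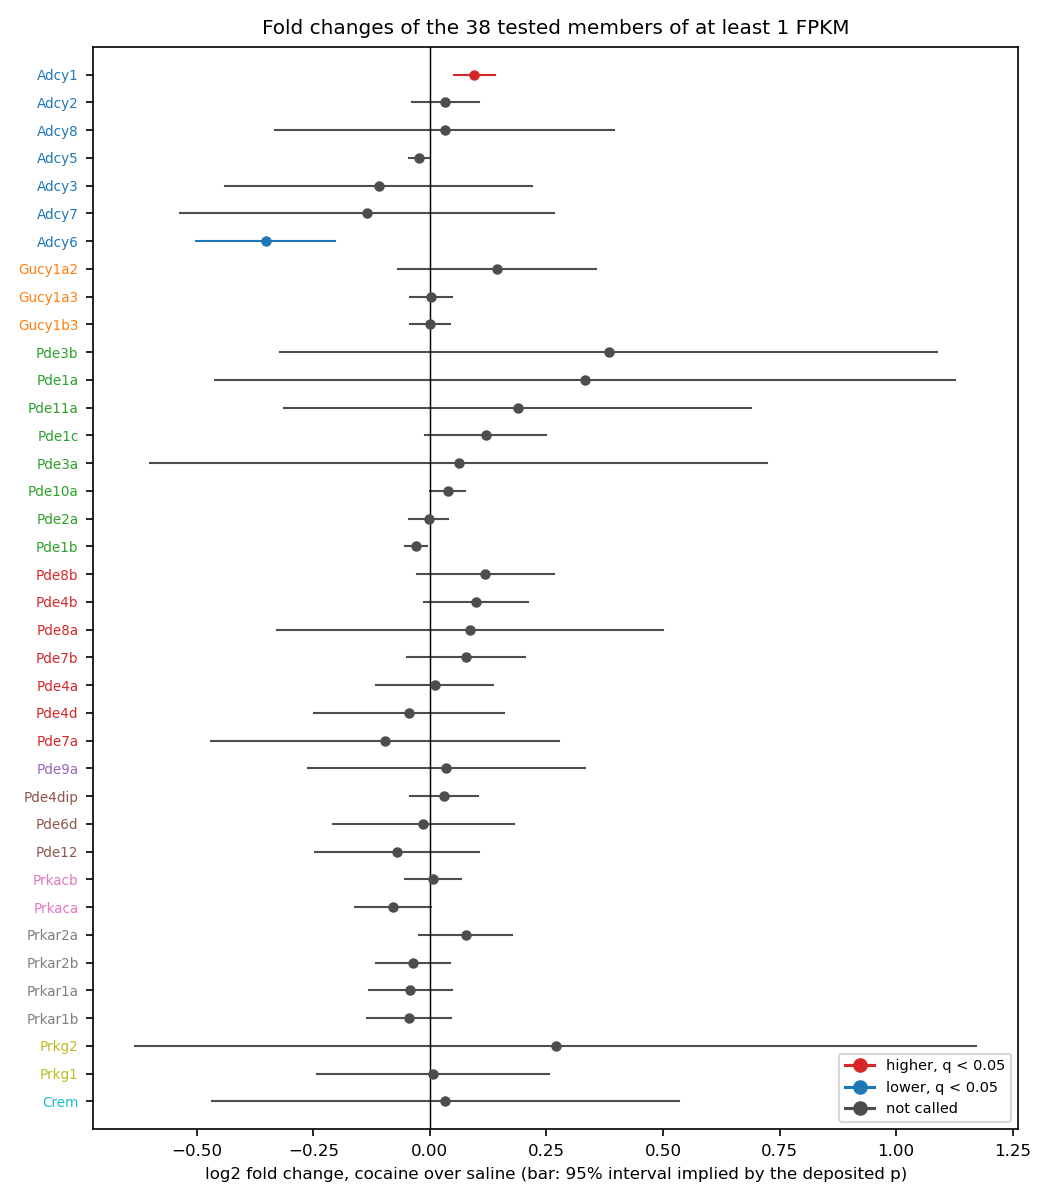
Log2 fold change, cocaine over saline, of the 38 tested members of at least 1 FPKM, grouped by role (colour of the gene name as in the plot of levels) and sorted within it. Bars are the 95% interval that the deposited p implies if it is read as a two-sided normal p. Adcy1 (0.09) and Adcy6 (-0.35) are the coloured points, and Pde3b (0.38) and Pde1a (0.33) lie farther from 0 than Adcy1 with intervals that span 0.

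Adenylyl cyclases convert ATP to cAMP. One gene carried most of the class: Adcy5, which is inhibited by Gi proteins and is the main cyclase of the striatum, stood at 272 FPKM after saline and 268 after cocaine. Of the summed FPKM of the 9 cyclases with a usable value, that was 77.6% after saline and 77.7% after cocaine. The sum was 351 FPKM after saline and 344 after cocaine, a ratio of 0.982. In the authors' deposited table Adcy5 had a log2 fold change of -0.02 with p = 0.0359 and q = 0.994. Its sign turned, to 0.02, after the trend with GC content and length described further down was subtracted.

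Adcy6 (ENSMUSG00000022994), the closest relative of Adcy5 and likewise inhibited by Gi and by calcium, fell. Its level was 3.47 FPKM after saline and 2.72 after cocaine, a difference of -21.7%. The authors' deposited table gives a log2 fold change of -0.35, p = 3.90e-06 and q = 0.000833. It was -0.27 with a pseudocount of 1 and -0.34 after the trend with GC and length was subtracted. Adcy6 made up 0.990% of the summed cyclase FPKM after saline and 0.790% after cocaine, and Adcy5 exceeded it 78.4-fold and 98.4-fold. The endothelial and mural markers and the blood markers given above had lower values in the same group, the former with a median log2 fold change of -0.32, and none of them was at 0. Cldn5, an endothelial tight junction gene, was the 1 of 11 that passed (10.2 and 7.46 FPKM, q = 0.00123 in the authors' deposited table). The part of these cells in the Adcy6 value was not tested, and in bulk tissue fewer cells of a type and less RNA per cell cannot be told apart.

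Adcy1 (ENSMUSG00000020431), a cyclase stimulated by calcium and calmodulin, rose by a small amount. It stood at 17.7 FPKM after saline and 18.9 after cocaine, a difference of 6.79%. The authors' deposited table gives a log2 fold change of 0.09, p = 2.29e-05 and q = 0.00403. With a pseudocount of 1 the value was 0.09, centred on the median of all genes 0.12, and less the trend with GC and length 0.11. Of the markers of cortical glutamatergic neurons, 4 of 5 with at least 1 FPKM lay below 0, the summed level of all 8 was 63.2 FPKM after saline and 56.4 after cocaine, and none was at 0. Among these 8, Slc17a7, a vesicular glutamate transporter, was the call (49.9 and 44.9 FPKM, q = 3.70e-05 in the authors' deposited table), and the other 7 did not pass. Its log2 fold change was -0.15, and -0.08 after the trend with GC and length was subtracted. The part of these cells in the Adcy1 value was not tested.

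The remaining cyclases did not pass. Adcy8, the other calmodulin-stimulated form, was at 1.196 and 1.223 FPKM in the saline and cocaine groups, and Adcy2, which G protein beta-gamma subunits stimulate, at 19.5 and 19.9. Adcy3, known from olfactory neurons and from neuronal cilia, was second in level with 35.1 and 32.5 FPKM. Its log2 fold change was -0.11 with p = 0.514 in the authors' deposited table, and -0.07 after the trend with GC and length was subtracted. Adcy7 stood at 1.09 and 0.989 FPKM and Adcy4 at 0.478 and 0.387. Adcy9, a widely expressed form with a failed test, is listed at 13.5 and 13.9 FPKM, from which no fold change was drawn. Adcy10, the bicarbonate-sensitive soluble cyclase, was at 0.0299 and 0.0432 FPKM and was not tested.

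**Figure D2:**
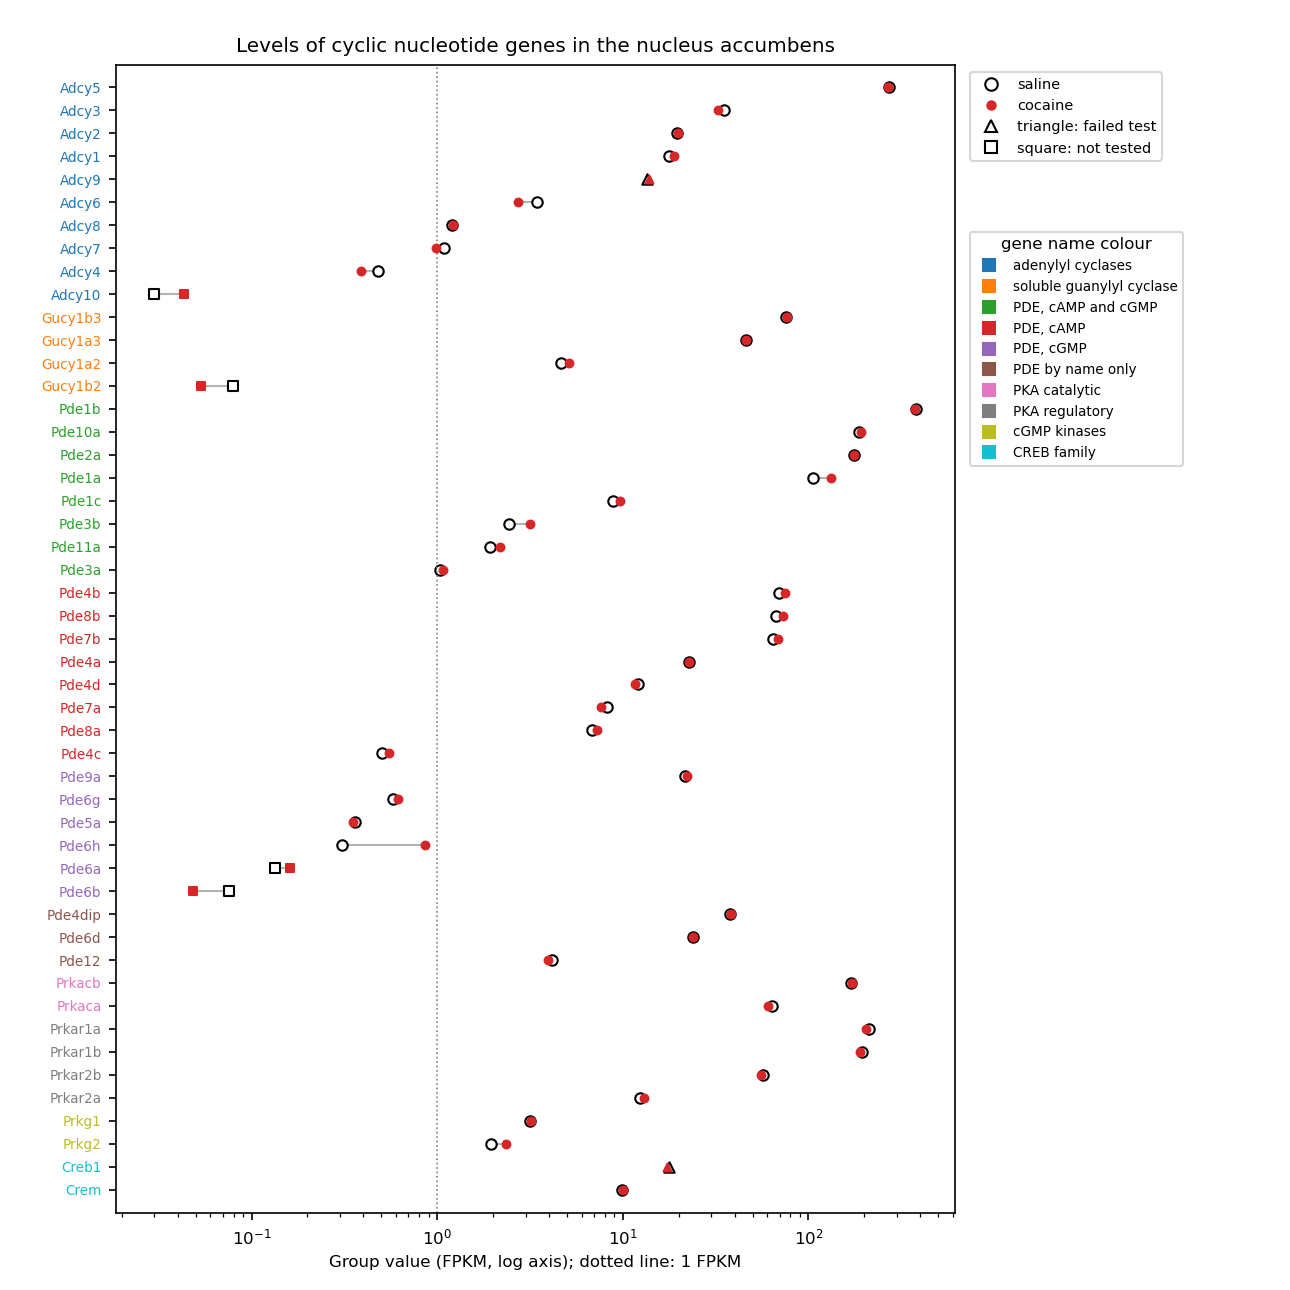
Group values in FPKM on a log axis for the members above 0 in both groups, with open symbols for saline and red symbols for cocaine. Levels run from under 0.1 FPKM (Adcy10, Pde6b, Gucy1b2) to over 300 (Pde1b), and the symbols of most members nearly coincide.

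Soluble guanylyl cyclase, the nitric oxide receptor, works as a dimer of an alpha and a beta subunit. Its beta subunit gene Gucy1b3 stood at 76.20 FPKM after saline and 76.24 after cocaine, and the alpha subunit gene Gucy1a3 at 46.00 and 46.07. Their ratio was 1.66 in both groups. In the authors' deposited table the log2 fold changes were 0.00085 (p = 0.969) for Gucy1b3 and 0.0020 (p = 0.931) for Gucy1a3, the pair of values nearest to 0 among the members. The implied 95% interval was -0.04 to 0.04 for Gucy1b3 and -0.04 to 0.05 for Gucy1a3. Gucy1a2, the second alpha subunit, was at 4.67 and 5.16 FPKM (p = 0.183 by the test in the authors' deposited table). Gucy1b2 was at 0.0798 and 0.0536 FPKM and was not tested.

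The PDEs that hydrolyse both cAMP and cGMP held the highest levels of the degrading enzymes. Pde1b, stimulated by calcium and calmodulin and abundant in striatum, stood at 382 FPKM after saline and 374 after cocaine. It ranked 112 of the tested symbols by saline FPKM, the highest rank of any member. Its log2 fold change in the authors' deposited table was -0.03 with p = 0.0146 and q = 0.598. It was 0.00 after the trend with GC and length was subtracted, because its own value was the median of the genes of like GC content and length. Pde10a, the spiny neuron enzyme that has been a drug target in striatal disease, was at 187 and 192 FPKM (log2 fold change 0.04, p = 0.0505 in the authors' deposited table). Pde2a, which cGMP stimulates, was at 176.1 and 175.8 FPKM (p = 0.908 by the test in the authors' deposited table). None of these differences reached 3 percent of the saline level.

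Pde1a had a large difference for its level. This second calmodulin-stimulated PDE stood at 106 FPKM after saline and 133 after cocaine, a difference of 25.95%, and its share of summed PDE FPKM was 9.25% and 11.2%. The authors' deposited table gives a log2 fold change of 0.33 but p = 0.411, so it did not pass. Read as a normal p, that implies a standard error of 0.41 and a 95% interval of -0.46 to 1.13. The third PDE1 gene, Pde1c, was at 8.88 and 9.65 FPKM (log2 fold change 0.12, p = 0.0701 in the authors' deposited table). The Pde1b value thus lay below 0, and those of Pde1a and Pde1c above it, and none of the 3 passed.

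The cGMP-inhibited PDE3 enzymes and Pde11a were low. Pde3b stood at 2.42 and 3.16 FPKM in the saline and cocaine groups, with a log2 fold change of 0.38, the highest among members of at least 1 FPKM, and p = 0.287 in the authors' deposited table. Pde3a was at 1.03 and 1.08 FPKM and Pde11a at 1.92 and 2.19. Neither passed. In all, 6 of the 8 dual-specificity PDEs lay above 0, with a median log2 fold change of 0.09 and 0 calls by the authors' test (1, Pde1b, at an unadjusted p below 0.05). Over all genes of at least 1 FPKM, 40.7% lay above 0. Of all tested symbols 1.25% were called and 5.75% had an unadjusted p below 0.05.

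Among PDEs specific for cAMP, Pde4b, Pde8b and Pde7b had similar levels. Pde4b, a PKA-activated enzyme that rolipram inhibits, stood at 69.5 FPKM after saline and 74.5 after cocaine. Pde8b was at 67.1 and 72.9 FPKM, and Pde7b, enriched in striatum, at 64.7 and 68.2. Their log2 fold changes in the authors' deposited table were 0.10 (p = 0.0803), 0.12 (p = 0.113) and 0.08 (p = 0.234), all above 0 and none called. Other family members were nearer to 0 or lower in level. Pde4a was at 22.7 and 22.8 FPKM, Pde7a at 8.21 and 7.68 and Pde8a at 6.86 and 7.28. Pde4c was below the 1 FPKM minimum at 0.506 and 0.553. Pde4d is listed under 2 gene identifiers with 4 records that hold 2 distinct pairs of values, 12.1 and 11.7 FPKM and 10.1 and 9.95 FPKM. Reads of this gene may be divided between records, so its level is uncertain. The class gave 0 calls among 8 tested genes by the authors' test (also 0 at an unadjusted p below 0.05), and 5 of the 7 of at least 1 FPKM lay above 0, with a median of 0.08. Across all genes of that level the share above 0 was 40.7% and the median -0.02.

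The PDEs specific for cGMP were nearly silent apart from Pde9a, an enzyme of high cGMP affinity, at 21.8 and 22.3 FPKM (p = 0.815 by the test in the authors' deposited table). Pde5a, the target of sildenafil, was at 0.3620 and 0.3504 FPKM. The photoreceptor genes Pde6a, Pde6b, Pde6g and Pde6h stayed under 1 FPKM in both groups, and Pde6c is listed at 0 after saline and 0.00948 FPKM after cocaine. Pde6h had the largest deposited log2 fold change of any tested member, 1.49, on 0.307 and 0.861 FPKM (p = 0.364 by the test in the authors' deposited table), and a pseudocount of 1 reduced it to 0.51.

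Over the 23 genes for cyclic nucleotide PDEs the summed level was 1140 FPKM after saline and 1182 after cocaine, a ratio of 1.04. Pde1b made up 33.5% and 31.7% of it, Pde10a 16.4% and 16.3%, and Pde2a 15.4% and 14.9%. Summed PDE mRNA exceeded summed cyclase mRNA 3.25-fold after saline and 3.43-fold after cocaine. These sums have no replicate error, and the difference in Pde1a, which did not pass, is the largest single part of it. The 23 genes include Pde6g and Pde6h, which encode noncatalytic PDE6 subunits and stayed under 1 FPKM. A further 3 genes carry a Pde symbol without being cyclic nucleotide PDEs. They are Pde4dip, the centrosomal protein myomegalin (37.7 and 38.5 FPKM), Pde6d, a carrier of prenylated proteins (24.04 and 23.81), and Pde12, a mitochondrial RNA deadenylase (4.16 and 3.96). None of them passed.

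**Figure D3:**
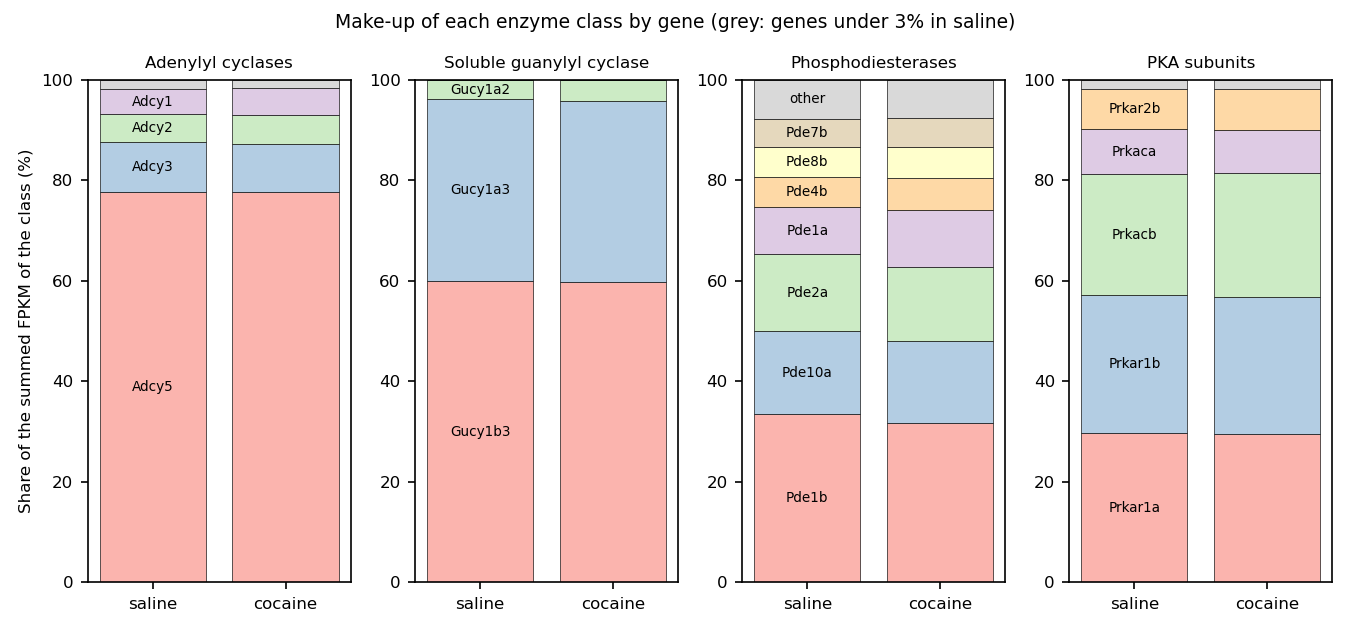
Share of each gene in the summed FPKM of its class, saline beside cocaine, for adenylyl cyclases, soluble guanylyl cyclase, cyclic nucleotide PDEs and PKA subunits. Adcy5 holds over 77% of the cyclase sum in both groups, and the make-up of each class is nearly the same in the paired bars.

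PKA is a tetramer of 2 regulatory and 2 catalytic subunits. Among the regulatory subunit genes, Prkar1a stood at 211 FPKM after saline and 205 after cocaine and Prkar1b, the neuronal type I form, at 195 and 190. Prkar2b, the type II form abundant in brain, was at 56.9 and 55.5 FPKM, and Prkar2a at 12.3 and 13.0. Of the catalytic subunit genes, Prkacb was at 170.6 and 171.5 FPKM and Prkaca at 63.9 and 60.5. None of the 6 passed. The smallest p in the authors' deposited table was that of Prkaca (log2 fold change -0.08, p = 0.0586), and those of the regulatory subunits lay between 0.133 and 0.365. Their log2 fold changes were between -0.04 and 0.08, and that of Prkar1b turned from -0.04 to 0.02 after the trend with GC and length was subtracted. Summed regulatory over summed catalytic FPKM was 2.029 after saline and 1.996 after cocaine. Prkacb exceeded Prkaca 2.67-fold and 2.83-fold.

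The cGMP-dependent kinases were low. Prkg1 stood at 3.17 and 3.19 FPKM in the saline and cocaine groups (p = 0.956 in the authors' deposited table) and Prkg2 at 1.94 and 2.34 (log2 fold change 0.27, p = 0.558 in the authors' deposited table). Of the transcription factors, Crem, whose gene also encodes the inducible repressor ICER, was at 9.85 and 10.1 FPKM (p = 0.897 by the test in the authors' deposited table). Creb1, with a failed test, is listed at 17.8 and 17.3 FPKM, and no fold change was drawn from it.

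How finely a member could be resolved differed widely. If each deposited p is read as a two-sided normal p, the fold change divided by its normal score gives an implied standard error on the log2 scale. Over the 38 members it ran from 0.011 for Adcy5 to 0.46 for Prkg2, with a median of 0.07, and 14 lay under 0.05 while 8 lay above 0.2. Genes of like level differed: Adcy1 had 0.022, Adcy2 0.037, Pde4a 0.064 and Pde9a 0.15, at levels of 17.7 to 22.8 FPKM. Adcy1 thus passed with a log2 fold change of 0.09, while Pde4b, at 0.10 and 69.5 FPKM after saline, did not (implied standard error 0.057). How the authors' test estimated the spread between libraries is not given, so what variation these errors hold is unknown. For 4 members, Adcy5, Pde2a, Gucy1a3 and Gucy1b3, the implied 95% interval lay within 0.05 of 0. For 8 others, Adcy8, Pde1a, Pde3a, Pde3b, Pde8a, Pde11a, Prkg2 and Crem, it reached past 0.3 on both sides of 0.

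**Figure D4:**
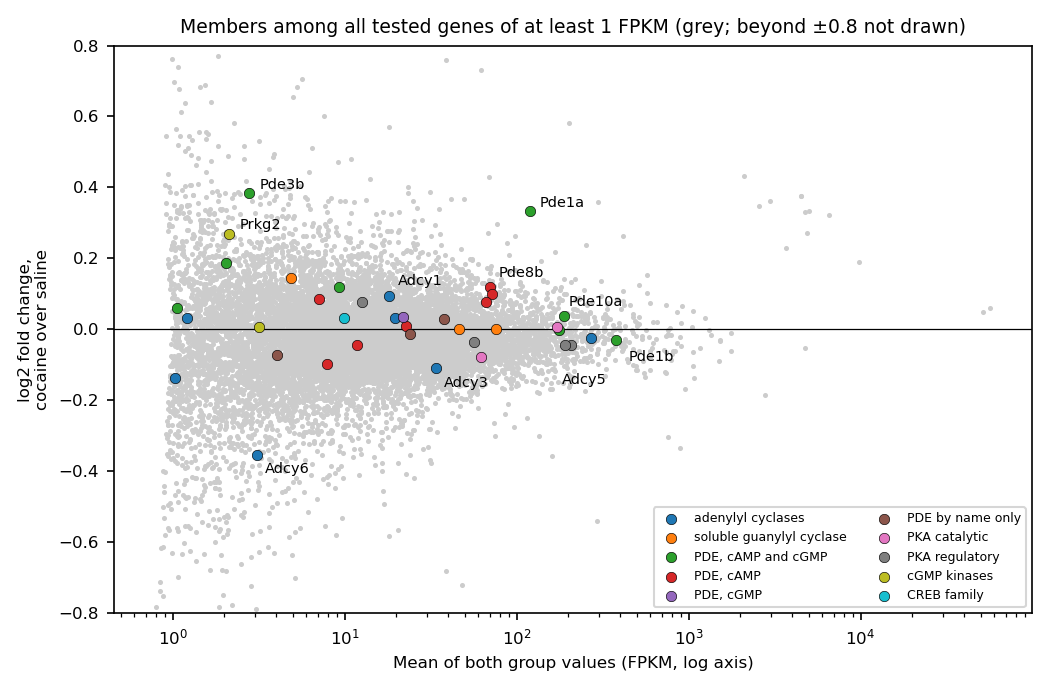
Log2 fold change against the mean of both group values (FPKM, log axis) for the members (coloured by role) over all tested genes of at least 1 FPKM (grey). The 49 genes beyond 0.8 in size are not drawn. Pde1a, at over 100 FPKM, stands above most genes of its level, and the other members lie in the grey cloud.

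The rest of the pathway was followed in 9 lists. Receptors that couple to Gs or Golf gave 0 calls among 17 tested genes in the authors' deposited table, and those that couple to Gi or Go gave 0 among 28. Drd1a was at 65.0 and 63.8 FPKM in the saline and cocaine groups, Adora2a at 119.6 and 118.1, and Drd2 at 91.2 and 88.5. The G protein alpha subunits gave 0 calls among 8, with 3 log2 fold changes above 0 and 5 below. The authors' test ranked Gnai2 and Gnas first in this list, and both were lower after cocaine. Gnai2 was at 88.6 and 82.7 FPKM in the saline and cocaine groups (log2 fold change -0.10, q = 0.0772 in the authors' deposited table). Gnas was at 461 and 433 FPKM (-0.09, q = 0.206 in the authors' deposited table). Both log2 fold changes were -0.03 after the trend with GC and length was subtracted. Gnal, the Golf subunit that couples these stimulatory receptors to Adcy5, was at 159 and 163 FPKM (p = 0.00798 and q = 0.398 in the authors' deposited table). PKA inhibitors, substrates and phosphatases gave 0 calls among 17, with Ppp1r1b at 829 and 795 FPKM (log2 fold change -0.06, p = 0.00508 and q = 0.289 in the authors' deposited table). The Ppp1r1b value turned to 0.007 after the trend with GC and length was subtracted. At an unadjusted deposited p below 0.05 these 4 lists held 0, 2, 3 and 4 genes (0%, 7.14%, 37.5% and 23.5%). Over all tested symbols 5.75% had such a p, and 1.25% were called.

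The A-kinase anchoring proteins, which hold PKA near its targets, gave 1 rise among 12 tested genes (8.33%, against 0.528% of all tested symbols). It was Akap6, the anchor mAKAP of the nuclear envelope (27.8 to 29.5 FPKM, log2 fold change 0.09, q = 0.00142 in the authors' deposited table). Its value was 0.04 after the trend with GC and length was subtracted. At an unadjusted deposited p below 0.05 the anchoring proteins held 2 genes, both higher (16.7%, against 5.75% of all tested symbols in either direction). Epac proteins and cyclic nucleotide-gated channels gave 0 calls among 7, nitric oxide synthases with receptor guanylyl cyclases and their ligands 0 among 9, and CREB partners 0 among 13. At an unadjusted deposited p below 0.05 these 3 lists held 2, 0 and 0 genes (28.6%, 0% and 0%, against 5.75% of all tested symbols).

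Of 21 tested genes long known as targets of cAMP and CREB, the authors' deposited table called 5 lower and 0 higher and left 16 uncalled, against 0.717% of all tested symbols called lower, with a median log2 fold change of -0.11 over the 20 of at least 1 FPKM. At an unadjusted deposited p below 0.05 there were 3 higher and 7 lower, against 2.0% and 3.75% of all tested symbols. The 3 higher were Crh, Pcsk1 and Scg2, none of them called. The 5 called lower were the activity-induced genes Nr4a1, Egr1 and Junb, the secreted neuropeptide precursor Vgf and the clock gene Per1. Their log2 fold changes in the authors' deposited table were -0.49, -0.24, -0.35, -0.08 and -0.24. After the trend with GC and length was subtracted that of Vgf was -0.02. Several of these genes also answer to calcium and growth factor signals, and the list was written with earlier results of these data known.

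Fold changes over the whole table varied with the base composition of transcripts, and the members shared this. Across the 38 members Spearman's rho between the log2 fold change and GC content of the longest transcript was -0.40, and across 12566 genes it was -0.30. For transcript length the values were 0.11 and 0.18. These are correlations across genes of the same libraries and are given as a description. The medians for the members' transcripts were 48.8% GC and 4500 bases, against 49.9% and 3407.5 bases over all. After its subtraction the members' median was 0.03, 6 of 38 changed sign, and the 2 called genes kept their direction. The 6 were Adcy5, Gucy1a3, Pde2a, Pde6d, Prkar1b and Prkg1, none of them called. Pde1b came to 0.00 as the median of its own set of genes of like GC content and length.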

How the data were processed

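The nucleus accumbens was sequenced in 3 saline and 3 cocaine libraries; the saline libraries carry the same treatment text as the cocaine ones and were grouped by their treatment label. TopHat2 2.0.6, Cufflinks 2.0.2 and build NCBIM37 are named in the submitters' processing notes, with no settings, annotation or strand use. The deposited table has a Cuffdiff layout. It holds 1 group value per record, made by the authors and taken as FPKM, and the authors' own log2 fold change, p-value and q-value. Deposited log2 fold changes of tested records differed by at most 1.28e-05 from those recomputed here. Depth is unknown, so no counting interval was computed, and the planned test on log2 FPKM per library could not be run.

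A symbol with several records was represented by its tested record of highest mean FPKM. Genes with a deposited q < 0.05 were called. Class sums leave out failed records. For the GC and length trend, the longest GENCODE M21 transcript was matched by Ensembl identifier (97.9% of genes of at least 1 FPKM), and the median of each of 10 by 10 GC and length cells was subtracted, a step checked on simulated data. Promoters are RefSeq's on GRCm38.p6. Python 3.11.15, pandas 2.3.3 and scipy 1.17.1 were used. Alternatives covered the q threshold, the adjustment, filters at 1 and 5 FPKM, pseudocounts of 0.1 and 1, centring and the trend. All members are named, and of other lists up to 4 called genes plus Drd1a, Drd2, Adora2a, Gnal, Ppp1r1b and Ttr. Any further gene of these lists, Per1 among them, was named after its value was seen. Members and lists were chosen with earlier results of these data known.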

Additional observations from a re-analysis of the deposited data

How the results depend on the processing

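The count of 2 called members was 2 at q below 0.01, at q below 0.1, with p-values adjusted over genes of at least 1 FPKM and among members of at least 1 FPKM. It was 1 among members of at least 5 FPKM, a filter that leaves out Adcy6 by its level. The members' median log2 fold change of 0.0199 was 0.0299 with no filter, 0.00994 at 5 FPKM or more, 0.0195 with a pseudocount of 0.1, 0.0134 with a pseudocount of 1, 0.0410 centred on the median of all genes and 0.0273 after the trend with GC and length was subtracted. Of 38 members, 2 changed sign with centring (Pde2a and Pde6d) and 6 after the trend was subtracted, with Pde1b at 0.00. A pseudocount cannot change a sign, so it bears only on the size of a value. Centring raised every member by the same amount, so it could not turn a value above 0. Adcy1 and Adcy6 kept their direction after the trend was subtracted. Whether a gene would pass the authors' test after these changes was not tested. No paired analysis was possible because the table holds 1 value per group and none per library, and for the same reason no replicate could be left out. The 12 members under 1 FPKM or with no usable test support no statement on direction.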
